A study of Mus musculus with 12 samples.

Results

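The genes described here encode the extracellular metalloproteinases of the matrix metalloproteinase (Mmp), ADAM and ADAMTS families and their tissue inhibitors (Timp). They were chosen by symbol alone, as every numbered Mmp, Adam, Adamts and Timp gene present in the tables of both ages. This gave 56 genes of 14986, with 16 Mmp, 17 Adam, 19 Adamts and 4 Timp genes. Another 3 genes with such names were in 1 table only, Mmp8 and Adam32 at P14 and Mmp21 at P16, each with 14 reads over the 6 libraries of that day, and they were not followed. Each value came from dermal papilla (DP) cells, the mesenchymal cells at the base of the hair follicle, sorted by FACS for YFP from trypsin- and collagenase-dissociated mouse skin in anagen, the growth phase. There were 3 control and 3 dMF1/2 mice at postnatal day 14 (P14) and as many at P16, and each library came from 1 mouse. dMF1/2 mice carried Cor-cre, a Cre allele in the Corin gene that is active in the DP after birth, and were homozygous for the floxed alleles Fgfr1Flox and Fgfr2Flox. Controls, which the labels call wild type, were not wild type at these loci, since the control genotypes of the study were Cor-cre/+ with heterozygous Fgfr1Flox and Fgfr2Flox, or homozygous floxed without Cre. Mice of both genotypes carried the YFP reporter, which needs Cre, so that by design YFP+ control cells can come only from Cor-cre/+ mice, in which Cre can also act on the single floxed copy of each receptor gene. The genotype of each control mouse is not given in the sources used here. The comparisons ask how the DP transcriptome differs when Fgf receptors are ablated in the DP, and how it moves over the last days of anagen.

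Metalloproteinases cut proteins with the help of a zinc ion in the active site. Mmp enzymes degrade collagens, proteoglycans and basement membrane proteins, ADAM enzymes sit in the membrane and release the outer parts of receptors and growth factors, and ADAMTS enzymes are secreted and cut procollagens or large proteoglycans such as versican, a proteoglycan typical of the DP matrix. Timp proteins bind and block the active enzymes, so that the mRNA of an enzyme does not state its activity, and the follicle rebuilds its matrix and basement membrane as it passes from growth to regression.

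Promoter windows of 300 bases, from 250 bases before to 50 bases after a start of transcription, were taken from RefSeq (GRCm38.p6), which held 38 windows for 34 of the 56 genes. The windows of Mmp11 and Adamts18 are shown because these genes had the largest lower and the largest higher value among the genes that passed the test between genotypes at P16. The capitals mark GGGCGG on either strand, the GC box, which was found in 23 of the 38 windows and in 35.7% of all 32841 windows. The Mmp11 window, on the minus strand of chr10:75932453-75932752, held 4 matches, and that of Adamts18, on the minus strand of chr8:113848790-113849089, held 1 that reads as its reverse complement. The RefSeq start of Adamts18 differs from that of the Ensembl gene whose reads were counted. Its window lies wholly upstream of that gene (chr8:113697126-113848615).
Mmp11: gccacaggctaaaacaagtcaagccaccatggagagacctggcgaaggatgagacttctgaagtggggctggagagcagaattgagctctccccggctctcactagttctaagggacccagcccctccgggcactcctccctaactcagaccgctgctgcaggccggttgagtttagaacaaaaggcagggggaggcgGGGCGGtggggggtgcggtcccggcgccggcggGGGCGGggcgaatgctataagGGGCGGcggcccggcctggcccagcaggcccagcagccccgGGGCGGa
Adamts18: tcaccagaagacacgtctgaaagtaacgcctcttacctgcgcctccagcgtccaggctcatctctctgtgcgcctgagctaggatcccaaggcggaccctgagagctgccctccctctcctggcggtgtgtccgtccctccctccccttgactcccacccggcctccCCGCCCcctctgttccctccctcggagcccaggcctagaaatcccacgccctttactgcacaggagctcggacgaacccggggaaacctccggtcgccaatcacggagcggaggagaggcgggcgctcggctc
Mmp3, Mmp12, Mmp13 and Mmp27 lie in a cluster on chromosome 9, and 60 bases around a TGANTCA match before the start of 3 of them are shown because they share it, the site of AP-1 factors such as Fos and Jun, here in capitals. The match began 46 bases before the start of Mmp3, 44 before that of Mmp12 and 35 before that of Mmp13. The plus-strand pieces are chr9:7445750-7445809, chr9:7347304-7347363 and chr9:7272453-7272512. That of Mmp12 lies inside the Ensembl gene whose reads were counted (chr9:7344381-7369499), since its RefSeq start differs from the Ensembl start.
Mmp3: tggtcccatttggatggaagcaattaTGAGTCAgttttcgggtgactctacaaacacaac
Mmp12: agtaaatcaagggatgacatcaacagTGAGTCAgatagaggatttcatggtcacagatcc
Mmp13: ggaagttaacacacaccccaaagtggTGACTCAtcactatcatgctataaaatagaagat
TGANTCA was found in 4 of the 38 windows, those 3 and Adam19, and in 7.81% of all windows. CTTTGAT and CTTTGAA, forms of the TCF/LEF site through which Wnt signaling acts, were in 0 of the 38 windows and in 3.73% and 5.13% of all. CCGGAAG, an ETS site, was in 2 (Adam15 and Adam17) against 8.86% of all, and TGTGGTT, a RUNX site, in 2 (Mmp13 and Mmp27) against 5.27%. Each motif was sought on both strands, and matches of 1 motif could overlap those of another. A match describes letters in the window and not a bound site.

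The 12 libraries held 19302358 to 29860750 reads in protein-coding genes, with 19302358 to 25824232 in P14 control, 22320432 to 23349314 in P14 dMF1/2, 23087174 to 29860750 in P16 control and 21161124 to 27122936 in P16 dMF1/2. Values are normalized reads, the reads of a gene divided by a size factor of the library that the authors set within each day, and 3 reads corresponded to 2.52 to 3.33 normalized reads. A log2 difference is the fitted difference in log2 of the value plus 1, dMF1/2 minus control or P16 minus P14. The targeted genes were not lost from the whole-gene counts: at P16, Fgfr1 had 8512 to 12517 normalized reads in control and 6226 to 8015 in dMF1/2 mice (log2 difference -0.50 ± 0.16, SE, limma's adjusted p = 0.130), and Fgfr2 had 4763 to 5356 and 4113 to 5575 (-0.01 ± 0.13, adjusted p = 0.978). These counts include exons outside the floxed segments, so they check the labels only weakly. Replicate 1 of both genotypes at P14 stood apart, with 7.06% and 9.15% of reads in Col1a1 against 13.1% to 17.7% in the other 10 libraries. Counts of calls over the days are also given without that pair, while the P14 genotype and interaction values are given with it only. The summed level of 10 DP markers was lower in P16 control (23725 to 60179 normalized reads) than in P16 dMF1/2 (82512 to 137678), while at P14 the ranges overlapped (78434 to 120134 against 81064 to 144260). At P16, 4 of the 10 markers passed the test, all higher in dMF1/2 mice (Alpl, Prom1, Rspo3 and Sostdc1), 9 did so with same-numbered libraries paired, and none was at 0. The summed level of 6 dissociation stress genes (Fos, Jun, Egr1, Hspa1a, Hspa1b and Atf3) was 235175 to 327743 in P16 control and 205555 to 230554 in P16 dMF1/2, without overlap. Of these, Atf3 passed the test at P16, lower in dMF1/2 mice, and Jun and Atf3 passed with same-numbered libraries paired. Sums of dermal fibroblast and dermal sheath markers overlapped between genotypes on both days, and 8 keratinocyte markers summed to 179 to 667 normalized reads at P16. At P16 the adipocyte marker Plin1 was higher in dMF1/2 mice, and with same-numbered libraries paired both adipocyte markers tested (Plin1 and Fabp4, summing to 226 to 435 in control and 364 to 571 in dMF1/2) were higher. With that pairing the endothelial marker Pecam1 was lower at P16 (the median log2 difference of 5 endothelial markers was -1.05), as were the fibroblast marker Dpt at P16 and the sheath marker Itga8 at P14. In such sorted bulk samples, fewer cells of a type and less RNA per cell cannot be told apart. The part of these shifts in the differences given here was not tested.

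By their mean over the 12 libraries, Mmp2, Timp2 and Mmp14 had the highest levels. On the scale of normalized reads per kb of exon, with the 12 libraries scaled together, Mmp2, the gelatinase that cuts denatured and basement membrane collagen, averaged 8929 (lowest 7507, highest 11329). Timp2 averaged 7698 (5281 to 9252) and Mmp14, the membrane-bound MT1-MMP, averaged 3617 (2800 to 4186). As background, Mmp14 and Timp2 together form the complex on the cell surface that activates the Mmp2 precursor. In every library Mmp2 lay above Mmp14, while the ranges of Mmp2 and Timp2 overlapped. By level per kb, Mmp2 exceeded 99.6% of the 13415 genes tested, Timp2 99.5% and Mmp14 98.8%.

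Next in level per kb came Adamts2 at 3025 (1807 to 3815), which removes the N-propeptide of fibrillar procollagens, and Adamts1 at 2433 (1585 to 4000), which cuts versican and aggrecan. These neighbours overlapped in range, and in P16 dMF1/2 mice Adamts2 (3402 ± 589, SD, n = 3) and Adamts1 (3057 ± 818) were not apart from Mmp14 (3360 ± 114). Mmp3 (stromelysin-1), at 952 (497 to 1610), also overlapped with Mmp27 at 593 (181 to 1088), Mmp23 at 528 (311 to 710), Timp3 at 463 (379 to 597) and Mmp11 at 453 (191 to 1199). Adam10, a sheddase of Notch receptors and cadherins, led the ADAM family at 419 (363 to 521). Of the 56 genes, 30 lay above the median level of all genes tested, 82.4 normalized reads per kb, and the median of the 56 was 118. The tail of low genes held Mmp9, the other gelatinase, at 4.65, Timp4 at 2.54 and Mmp13, the collagenase-3 and only collagenase in both tables, at 2.41. The lowest were Mmp25, Adam21, Adam30 and Mmp24, at 1.07 to 0.598.

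**Figure D1:**
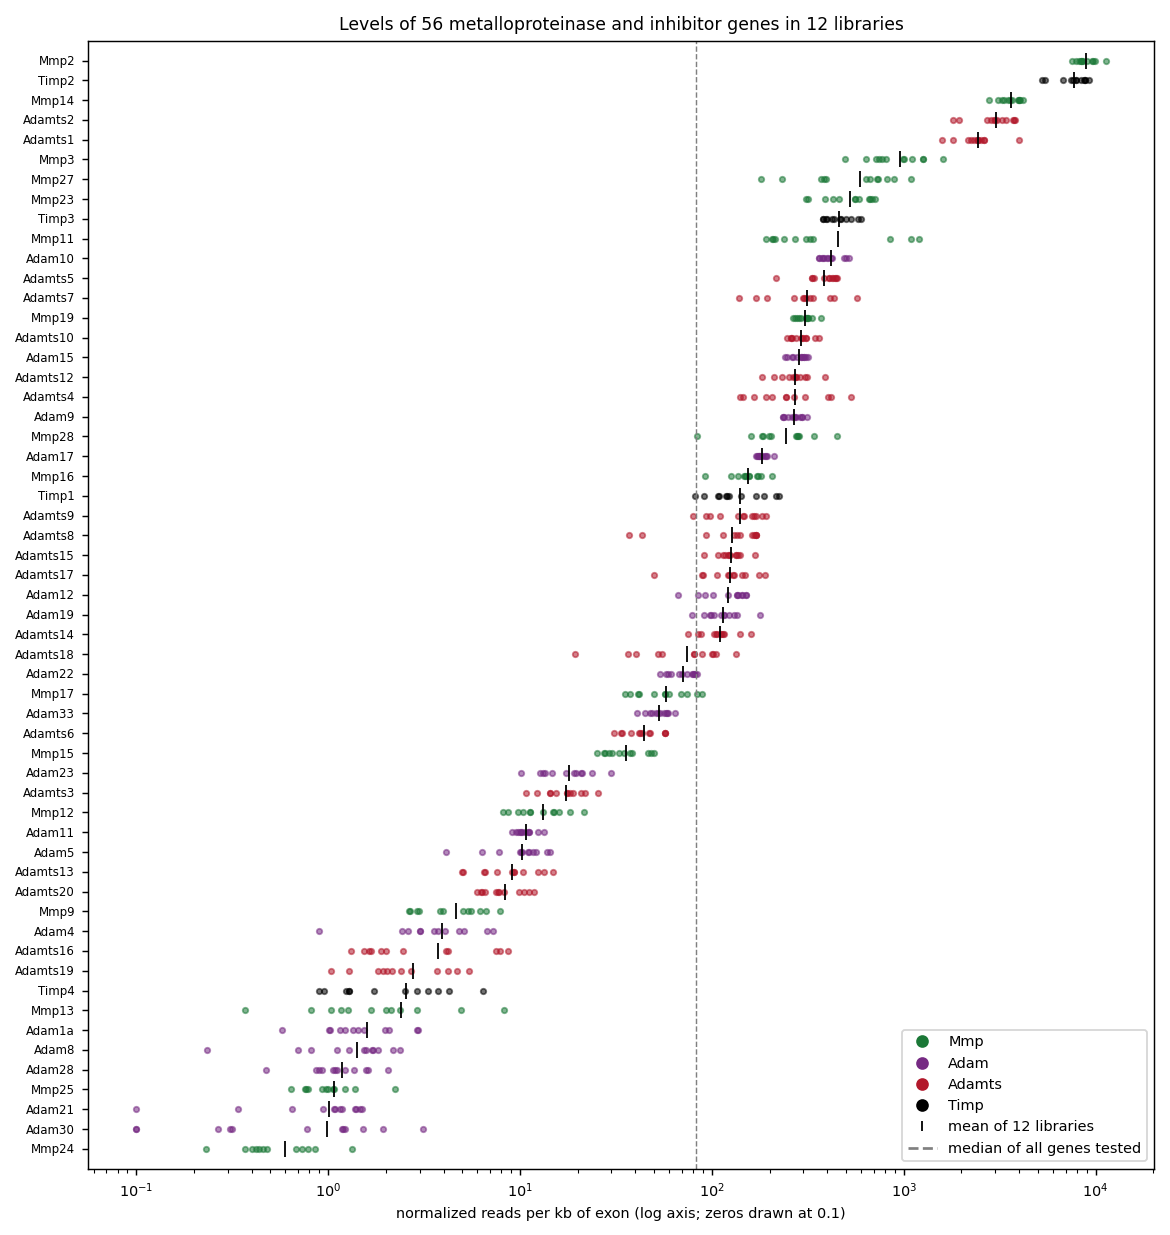
Level of each of the 56 genes in normalized reads per kb of exon (horizontal log axis), with 1 point per library, the mean of 12 libraries as a tick and the median of all genes tested as a dashed line. Mmp2 and Timp2 lie at the top with means of 8929 and 7698, and Mmp24 at the foot with 0.598.

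Summed per kb, the Mmp genes held 16922 to 17349 in P14 control and 13232 to 15006 in P14 dMF1/2 libraries, and 16477 to 18307 against 14619 to 15948 at P16. The groups did not overlap on either day, and the exact permutation test (two-sided) cannot go below p = 0.1 with 3 against 3. Summed Timp levels were 8468 to 9487 in P16 control and 7222 to 9944 in P16 dMF1/2, and the Timp sum divided by the Mmp sum ran from 0.354 to 0.680 over the 12 libraries, with overlap between genotypes on each day. Mmp11 took 4.65% to 7.28% of the summed Mmp level in P16 control and 1.30% to 2.22% in P16 dMF1/2, against 1.37% to 1.95% over all P14 libraries.

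At P16, in late anagen, 5 of the 50 genes of the families whose mean reached 10 normalized reads passed limma's test between genotypes at an adjusted p under 0.05, against a background of 4.32% of all genes tested. Mmp11 and Adamts4 were lower in dMF1/2 mice (2.14% of all genes were called lower), and Adamts18, Adamts9 and Adamts13 were higher (2.18% of all). The median log2 difference of the 50 was -0.10, beside 0.00 for all genes, and the median absolute log2 difference was 0.26, beside 0.15. The genotype groups did not overlap for 13 of the 50 genes, 5 higher and 8 lower, against 24.5% of all genes (12.9% higher and 11.6% lower). With the replicate number as a block, which pairs the libraries of a day, 10 of the 50 passed against a background of 10.4%, and the 5 genes added were Mmp3, Adam10 and Adam12 (lower) and Adam22 and Adamts3 (higher). DESeq2 on the recovered reads called 9 (background 8.33%), and edgeR's quasi-likelihood test 5 (background 4.48%).

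**Figure D2:**
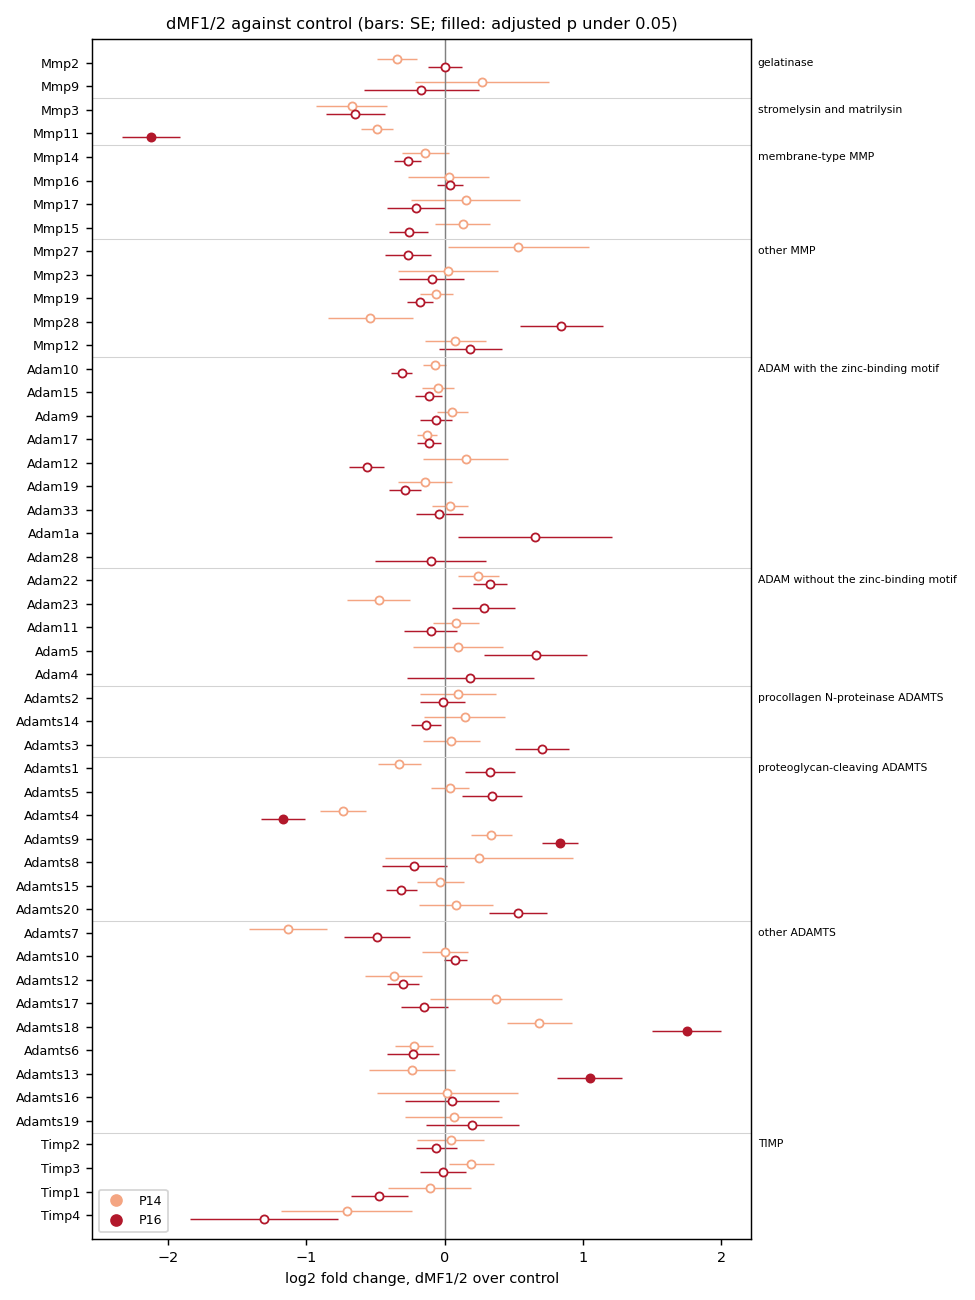
Log2 fold change of dMF1/2 over control with its SE (horizontal axis) for each gene tested at P14 (orange) and P16 (red), grouped by role, with filled points for genes past an adjusted p of 0.05. Filled points appear at P16 only, for Mmp11 (-2.12), Adamts4 (-1.17), Adamts18 (1.75), Adamts9 (0.84) and Adamts13 (1.05).

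Mmp11, or stromelysin-3 (ENSMUSG00000000901, mm10 chr10:75923222-75932502, minus strand), is made by stromal cells in tissues under remodeling and is activated inside the cell by furin. It held 3379, 2406 and 3064 normalized reads in the 3 P16 control libraries and 923, 601 and 541 in the P16 dMF1/2 libraries. Every control library lay above every dMF1/2 library. The mean was 2950 ± 497 (SD, n = 3) against 688 ± 205 in dMF1/2 mice, and the log2 difference was -2.12 ± 0.21 (SE), for which limma gave an adjusted p of 0.00392. It passed the test without any 1 of the 6 libraries, with adjusted p from 0.00358 to 0.0266. Its gene overlaps Chchd10, on the other strand, over 155 exonic bases.

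Adamts4, or aggrecanase-1 (ENSMUSG00000006403, chr1:171250421-171260637, plus strand), cuts aggrecan and versican. It held 2042, 1963 and 2583 normalized reads in P16 control and 945, 812 and 1189 in P16 dMF1/2 libraries. The groups were apart, and the log2 difference was -1.17 ± 0.16 (limma's adjusted p = 0.00932, and 0.0135 to 0.0405 without any 1 library). Adamts9, which cuts the same proteoglycans, went the other way. It held 1218, 1426 and 1491 normalized reads in control and 2257, 2231 and 2925 in dMF1/2 libraries. These groups were also apart, and the log2 difference was 0.84 ± 0.13 (limma's adjusted p = 0.0138, and 0.0246 to 0.0461 without any 1 library). Of the 7 proteoglycan-cleaving Adamts genes, 1 was thus higher, 1 lower and 5 did not pass the test, with a median log2 difference of 0.33.

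Adamts18 (ENSMUSG00000053399, chr8:113697126-113848615, minus strand) is a secreted ADAMTS enzyme with few known substrates. It held 199, 419 and 378 normalized reads in P16 control and 1049, 1094 and 1055 in P16 dMF1/2 libraries. The dMF1/2 libraries lay close together and well above the control libraries, among which replicate 1 was the lowest. The log2 difference was 1.75 ± 0.25 (limma's adjusted p = 0.0107), and the adjusted p rose to 0.0511 without P16 dMF1/2 replicate 3 and stayed under 0.05 without any other library. Adamts13, which cuts von Willebrand factor in blood, was much less abundant, with 25.3, 24.9 and 32.4 normalized reads in control and 67.0, 45.7 and 62.5 in dMF1/2 libraries. The groups did not overlap, and the log2 difference was 1.05 ± 0.23 with limma's adjusted p = 0.0479. That call was lost without any 1 of the 6 libraries, with adjusted p from 0.0597 to 0.160.

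Another 5 genes passed limma's test where same-numbered libraries were paired, and 3 of them also passed in DESeq2 without pairing, with adjusted p = 0.0378 for Mmp3, 0.0246 for Adam10 and 0.00597 for Adam12. Mmp3 held 1822, 2949 and 2023 normalized reads in P16 control and 1319, 1835 and 1173 in P16 dMF1/2 libraries. Replicate 2 was the highest library of each genotype and 1 dMF1/2 library lay just above the lowest control library, while within each number the dMF1/2 library was lower. The log2 difference was -0.65 ± 0.21, with limma's adjusted p = 0.142 without and 0.00504 with the block. Adam10 was lower in dMF1/2 mice by a small step, with 2426, 2510 and 2593 against 1937, 2126 and 2010 normalized reads, and its groups did not overlap. The log2 difference was -0.31 ± 0.08 (limma's adjusted p = 0.0646, and 0.0278 with the block). Adam12, or meltrin alpha, held 1622, 1551 and 1536 against 918, 1301 and 998 normalized reads, again without overlap. This gave a log2 difference of -0.57 ± 0.13 (limma's adjusted p = 0.0515, and 0.0246 with the block). Adam22, a neuronal LGI1 receptor without the zinc-binding motif, had a log2 difference of 0.33 ± 0.12 (limma's adjusted p = 0.204, and 0.0357 with the block). Adamts3, a procollagen N-proteinase that also processes VEGF-C, had one of 0.70 ± 0.20 (limma's adjusted p = 0.0944, and 0.0328 with the block).

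The Mmp2 activation system did not pass the test at P16. Mmp2 held 27168, 33461 and 28964 normalized reads in control and 28969, 30970 and 29644 in dMF1/2 libraries, which overlapped and had equal means to 3 digits. The log2 difference of Mmp2 was 0.00 ± 0.12 (limma's adjusted p = 0.990). Timp2 differed by -0.06 ± 0.15 (adjusted p = 0.882) and Mmp14 by -0.27 ± 0.10 (adjusted p = 0.189, and 0.0954 with the block). Mmp14 held 24365, 24135 and 25261 normalized reads in control and 19912, 21137 and 20202 in dMF1/2 libraries without overlap, and DESeq2 gave it an adjusted p of 0.0256. Adamts2 differed by -0.02 ± 0.17 (adjusted p = 0.977).

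None of the 4 Timp genes passed the test at P16. Timp3, which binds to the matrix and also inhibits ADAM and ADAMTS enzymes, differed by -0.01 ± 0.17 on the log2 scale (limma's adjusted p = 0.983), and its exons overlap Syn3 on the other strand over 1733 bases. Timp1 held 96.9, 111 and 153 normalized reads in control and 74.5, 98.9 and 82.6 in dMF1/2 libraries, with overlap and a log2 difference of -0.47 ± 0.20 (adjusted p = 0.260). Timp4 held 17.5, 38.4 and 25.3 against 5.40, 22.4 and 7.41 normalized reads, a log2 difference of -1.31 ± 0.53 (adjusted p = 0.233) that rests on 5 to 37 reads per library.

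Mmp13 fell under the filter of a mean of 10 and was not fitted. It held 9, 13 and 22 reads in the P16 control and 6, 3 and 3 reads in the P16 dMF1/2 libraries. The groups did not overlap, and the exact permutation test (two-sided) on the normalized reads gave p = 0.1, the smallest it can give for 3 against 3. At P14 it held 0.975 to 5.59 normalized reads in control and 3.36 to 5.33 in dMF1/2 libraries, near the level of 3 reads. Adam1a, whose exons share 6584 bases on the same strand with Gm42878 and Mapkapk5, was taken as uncertain and is not described further. The other genes of the families with a mean under 10 at P16 were Adam21, Adam30, Adam8, Mmp24 and Mmp25.

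At P14, 0 of 47 genes of the families passed limma's test between genotypes, against 0.0525% of all genes tested, and edgeR's quasi-likelihood test also called 0. At an unadjusted p under 0.05, 6 of the 47 did so in limma, and 976 of all 13334 genes. With the block, 4 passed (background 1.68%), and DESeq2 called 3 (background 1.55%). The groups did not overlap for 5 of the 47 genes, all lower in dMF1/2 mice, against 12.7% of all genes (6.32% lower). The 47 genes had a median log2 difference of 0.03, beside 0.00 for all genes.

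Mmp2 held 37707, 31673 and 33007 normalized reads in P14 control and 27791, 25070 and 27520 in P14 dMF1/2 libraries. The groups did not overlap, and the log2 difference was -0.35 ± 0.15 (limma's adjusted p = 0.677, and 0.180 with the block). Per kb, Mmp2 averaged 10260 ± 946 in P14 control and 8037 ± 463 in P14 dMF1/2 mice, the main part of the gap between the summed Mmp levels of that day.

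Adamts7, which cuts cartilage oligomeric matrix protein, held 3536, 2010 and 2576 normalized reads in P14 control and 1659, 859 and 1214 in P14 dMF1/2 libraries. The groups were apart, and replicate 1 was the highest and replicate 2 the lowest of each genotype. The log2 difference was -1.13 ± 0.28, with limma's adjusted p = 0.320 without and 0.00140 with the block, and 0.0102 in DESeq2. At P16 the difference was -0.49 ± 0.24 (adjusted p = 0.321, and 0.129 with the block), with overlap. Mmp3 differed by -0.67 ± 0.25 at P14 (limma's adjusted p = 0.608, and 0.00797 with the block), close in size to its P16 value.

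Of the genes that passed at P16, 3 had differences of the same sign at P14 that passed only with the block or in DESeq2. Adamts4 held 1152, 1269 and 1446 normalized reads in P14 control and 693, 980 and 671 in P14 dMF1/2 libraries, without overlap. Its log2 difference was -0.74 ± 0.17 (limma's adjusted p = 0.282, 0.0481 with the block and 0.0205 in DESeq2). Adamts18 held 812, 549 and 527 against 1338, 811 and 899 normalized reads, and the lowest dMF1/2 library fell just below the highest control library. Its log2 difference was 0.68 ± 0.23 (limma's adjusted p = 0.549, and 0.0114 with the block). Mmp11 held 848, 744 and 929 against 573, 653 and 564 normalized reads, without overlap. Here the log2 difference was -0.49 ± 0.11 (limma's adjusted p = 0.292, 0.105 with the block and 0.0485 in DESeq2).

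**Figure D3:**
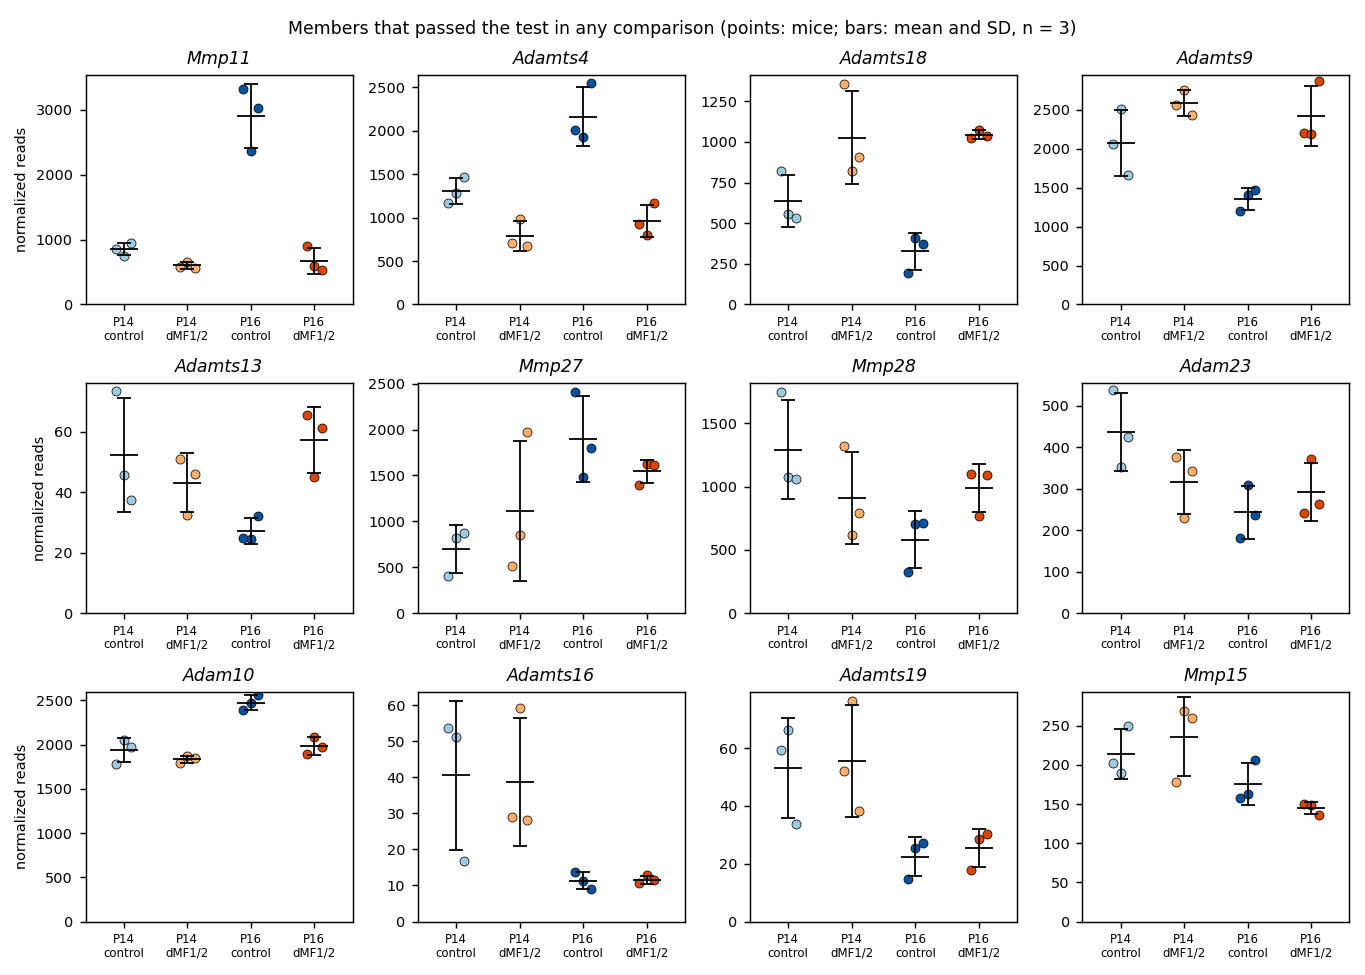
Normalized reads, with all 12 libraries scaled together (vertical axes from 0), of the 12 genes that passed limma's test in any comparison, in the 4 groups on the horizontal axis. Points are mice and bars the mean and SD (n = 3). Mmp11 lies at 2365 to 3330 in P16 control and at 531 to 941 in every other group.

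Between P14 and P16, control mice had calls among these genes in both directions, with shares near those of all genes. With all 12 libraries scaled together and fitted in 1 model, 10 of 49 genes of the families passed limma's test in control mice, against 14.5% of all genes tested. Mmp11, Mmp27, Adamts4 and Adam10 rose (6.26% of all genes did), and Adamts16, Adamts19, Mmp28, Adamts18, Adam23 and Adamts9 fell (8.28% of all). The P14 and P16 control groups did not overlap for 16 of the 49 genes, against 36.0% of all genes. These comparisons use the same P16 and P14 control libraries as the genotype comparisons, so that they are not independent of them. The calls were fragile: 3 genes passed where the 6 control libraries were fitted alone, and 2 passed where any 1 of P14 control replicate 1, P14 control replicate 2 or P16 control replicate 1 was left out, 3 without P16 control replicate 3 and 8 without P16 control replicate 2. Without replicate 1 of both genotypes at P14, which stood apart in Col1a1, Mmp11, Adam10 and Mmp27 passed. Where a value with the block is given for the days, in either genotype, the block joined same-numbered libraries of both days. These came from different mice, and their deviations from the group means had correlations over genes of -0.162 to 0.208.

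Mmp11 rose from 851 ± 93.3 to 2907 ± 493 normalized reads (SD, n = 3), a log2 difference of 1.76 ± 0.19 (SE; limma's adjusted p = 0.000476), and it passed the test without any 1 library. Adam10 rose from 1936 ± 138 to 2473 ± 84.7 normalized reads, a log2 difference of 0.36 ± 0.07 (limma's adjusted p = 0.0118), and also passed without any 1 library. Adamts4 rose by 0.72 ± 0.18 on the log2 scale (limma's adjusted p = 0.0222), a call lost without P14 control replicate 1 or 2 or P16 control replicate 1 or 3, with adjusted p up to 0.0819. Mmp27, a little-studied Mmp of the chromosome 9 cluster, held 400, 818 and 873 normalized reads at P14 and 2403, 1479 and 1804 at P16. The days did not overlap, and the log2 difference was 1.49 ± 0.42 (limma's adjusted p = 0.0364), lost without the same 4 libraries, with adjusted p up to 0.133.

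Among the genes that fell, Adamts16, which cuts fibronectin, held 53.8, 51.1 and 16.8 normalized reads at P14 and 13.8, 11.2 and 9.01 at P16, with P14 replicate 3 close to the P16 libraries. Its log2 difference was -1.60 ± 0.44 (limma's adjusted p = 0.0327), lost without any library but P14 control replicate 3. Adamts19 fell by 1.20 ± 0.36 on the log2 scale (adjusted p = 0.0445), lost without the same 5 libraries. Mmp28, or epilysin, held 1748, 1074 and 1058 normalized reads at P14 and 324, 705 and 716 at P16. The days did not overlap, and the log2 difference was -1.20 ± 0.34 (adjusted p = 0.0391). Adamts18 fell from 638 ± 161 to 327 ± 115 normalized reads (limma's adjusted p = 0.0324). Adam23, a relative of Adam22 also without the zinc-binding motif, changed by -0.86 ± 0.25 (adjusted p = 0.0413, and 0.0590 with the block) and Adamts9 by -0.60 ± 0.15 (adjusted p = 0.0255). The calls of Mmp28 and Adamts18 were lost without P14 control replicate 1 or 2 or P16 control replicate 1 or 3, that of Adam23 without any library but P16 control replicate 2, and that of Adamts9 without P14 control replicate 1 or 2 or P16 control replicate 1. Adamts13 missed the threshold with -0.87 ± 0.28 (adjusted p = 0.0559, and 0.0407 with the block). Over the same days, 5 of the 10 DP markers fell in control mice, and 3 of the 6 dissociation stress genes (Hspa1a, Hspa1b and Atf3) rose. Among markers of other cell types, endothelial Emcn rose (1 of 5 tested, with a median log2 difference of 1.71 over the 5) and adipocyte Plin1 fell (1 of 2 tested). In the scaling of each day, the 5 endothelial markers summed to 486 to 586 normalized reads in P14 control and 359 to 1051 in P16 control, and the 2 adipocyte markers to 356 to 810 and 226 to 435. The part of any of these in the changes was not tested.

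In dMF1/2 mice, 1 of the 49 genes passed between P14 and P16, against 5.8% of all genes tested and 3.97% that fell. Mmp15, or MT2-MMP, fell from 236 ± 50.2 to 145 ± 7.68 normalized reads, a log2 difference of -0.68 ± 0.17 (limma's adjusted p = 0.0447). That call was lost without P14 dMF1/2 replicate 2 or 3 or any P16 dMF1/2 replicate, with adjusted p up to 0.152. With the block 3 genes passed (background 7.04%), Mmp15, Adamts16 and Adamts1, and DESeq2 called these and Adamts19, 4 in all (background 9.92%). Adamts16 fell from 38.8 ± 17.7 to 11.6 ± 1.15 normalized reads, with limma's adjusted p = 0.0571 without and 0.0384 with the block, and its log2 difference of -1.57 ± 0.44 stood beside the -1.60 of control mice. Adamts1 had a log2 difference of 0.67 ± 0.18 (adjusted p = 0.0525, and 0.0483 with the block). None of the 10 DP markers or 6 stress genes passed over these days in dMF1/2 mice without the block, while with it Hspa1a and Hspa1b were higher at P16 and Lef1 was lower, and their part in these changes was not tested. The dMF1/2 groups of the 2 days did not overlap for 10 of the 49 genes, against 27.6% of all genes.

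**Figure D4:**
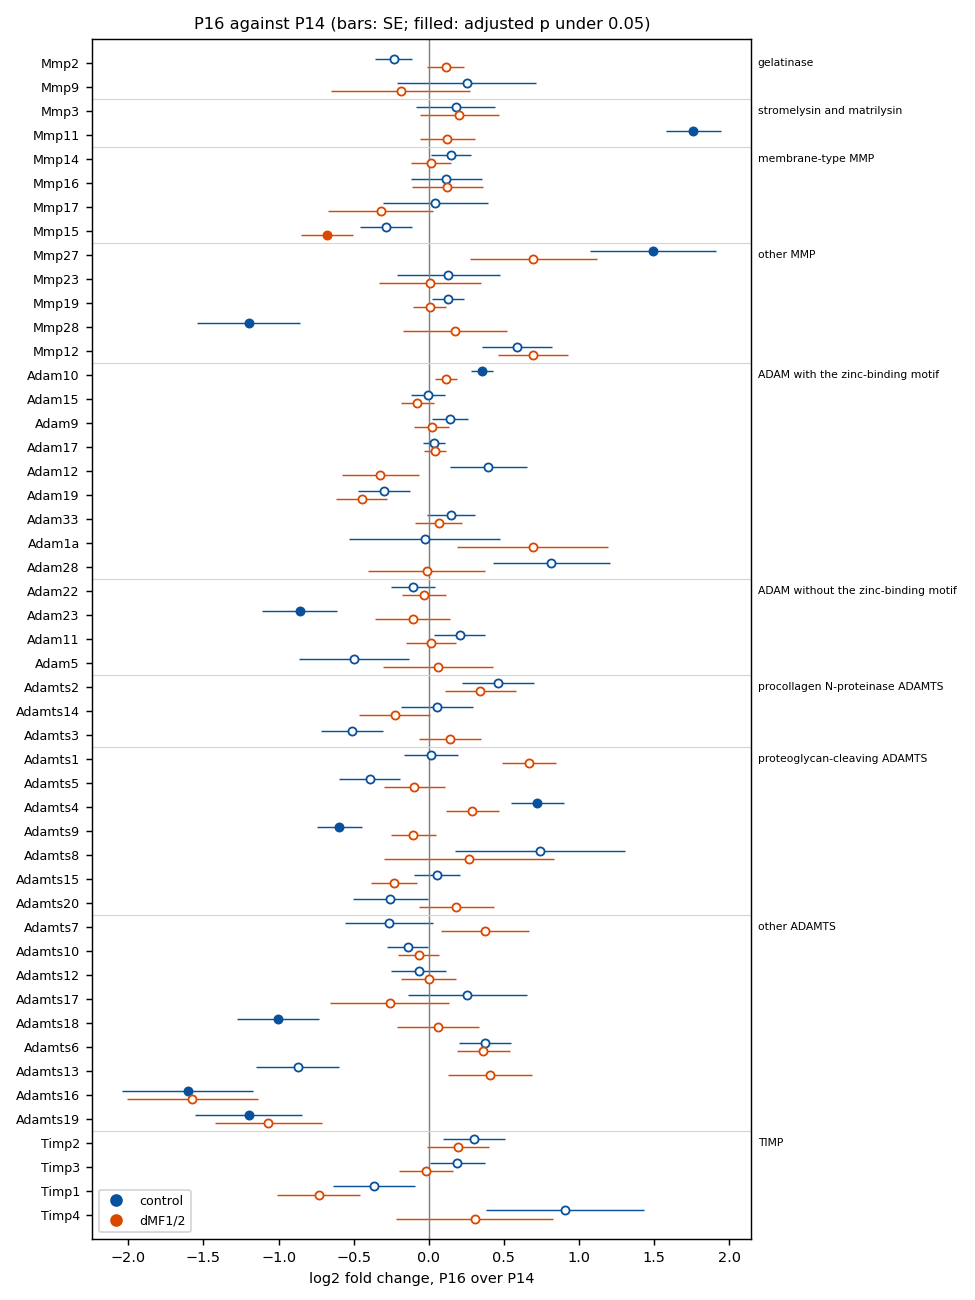
Log2 fold change of P16 over P14 with its SE (horizontal axis) for each gene tested in control (blue) and dMF1/2 mice (orange), grouped by role, with filled points for genes past an adjusted p of 0.05. Mmp11 lies at 1.76 in control and 0.12 in dMF1/2 mice, and Adamts16 at -1.60 and -1.57.

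The values of dMF1/2 mice for the genes that moved in control mice were, on the log2 scale, 0.12 ± 0.19 for Mmp11, 0.70 ± 0.42 for Mmp27, 0.29 ± 0.18 for Adamts4 and 0.11 ± 0.07 for Adam10. For those that fell in control mice they were 0.06 ± 0.27 for Adamts18, 0.18 ± 0.34 for Mmp28, -0.11 ± 0.25 for Adam23, -0.10 ± 0.15 for Adamts9 and -1.07 ± 0.36 for Adamts19. None of these 9 passed limma's test in dMF1/2 mice. Adamts19, whose log2 difference was -1.20 in control mice, passed in DESeq2 (adjusted p = 0.0430) and not in edgeR (0.0896). Whether the change over the days differed between the genotypes was tested as an interaction, which 0 of the 49 genes and 0.0% of all 13415 genes passed in limma. At an unadjusted p under 0.05, 8 of the 49 and 648 of all did so. Mmp11 had the largest interaction in size among the genes named here, -1.64 ± 0.26 on the log2 scale, with limma's adjusted p = 0.342 and 0.0842 with the block. DESeq2 gave it an adjusted p of 0.000125, the only call there among the families (background 0.0522%), and limma called it with an adjusted p of 0.0299 without P16 dMF1/2 replicate 1. The interactions of Mmp28 (1.38 ± 0.49), Adamts13 (1.28 ± 0.39) and Adamts18 (1.06 ± 0.38) did not pass either, with unadjusted p of 0.0159, 0.00712 and 0.0176 in limma.

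Other genes of the same pathway were read from 6 lists of 58 genes, 55 of them in both tables and 50 tested. At P16, 3 of the 50 passed between genotypes, against the 4.32% of all genes. Tspan5 and Tspan14 are tetraspanins that carry Adam10 to the cell surface. Tspan5 was higher in dMF1/2 mice, with 2897 ± 186 against 1767 ± 343 normalized reads (log2 difference 0.73 ± 0.14, limma's adjusted p = 0.0285), and Tspan14 was lower, with 508 ± 40.8 against 677 ± 23.6 (-0.42 ± 0.09, adjusted p = 0.0479). Adamtsl2, a matrix protein related to ADAMTS but without protease activity, was lower, with 1405 ± 251 against 3233 ± 1220 (-1.15 ± 0.24, adjusted p = 0.0395). The calls of Tspan5 and Adamtsl2 were lost without P16 control replicate 3 or any dMF1/2 replicate, and that of Tspan14 without any 1 of the 6 libraries. None of the 9 other matrix proteinases, the 11 substrates, the 5 astacin proteinases or the 5 plasminogen activation genes tested passed at P16, and 0 of the 50 did so at P14. With the block 8 passed at P16 (background 10.4%), with Pcsk5, Rhbdf2, Sfrp1 and Tll1 among those added, and 3 at P14 (Rhbdf2, Thsd4 and Vcan, against 1.68% of all genes). In control mice, 7 of the 50 passed between the days, against 14.5% of all genes. Among them Plat, the tissue-type plasminogen activator, fell. The proprotein convertases Furin and Pcsk5, the secreted Wnt antagonist Sfrp1, the procollagen C-proteinase Tll1 and Pcolce, an enhancer of such enzymes, also fell. Sfrp1 fell by 2.18 ± 0.42 on the log2 scale (adjusted p = 0.00861), a call kept without any 1 library, and those of the others named were lost without some library. With the block 11 passed in control mice over the days, against 16.7% of all genes. In dMF1/2 mice 0 of the 50 passed, and Pcolce alone with the block.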

How the data were processed

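RNA of sorted DP cells was sequenced in 12 libraries (single-end reads, ribosomal depletion, a stranded kit). Per the labels and the study's methods, the authors used Trimmomatic for trimming, TopHat2 for alignment to mm10, HTSeq for counts per Ensembl gene (GRCm38.p4) and DESeq2 for normalization. The strand setting of the counting is not given in the sources used here, so antisense overlaps cannot be resolved. The deposited tables, 1 per day, hold this signal, reads divided by a size factor, for protein-coding genes. They also hold columns of the authors' own comparison, namely log2 fold changes, a test score and p-values, which were not used. Every value of a library was a whole multiple of 1 constant (100% of values within 0.01), so that whole reads were recovered.

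The genes were matched by symbol. The genes and lists were chosen with earlier results of these data known. Genes with a mean of at least 10 were tested with limma 3.58.1 in R 4.3.3 (mean-variance trend) on log2 of the value plus a pseudocount of 1, with Benjamini-Hochberg adjusted p over all genes tested and a threshold of 0.05. A fold change on this scale understates the change of low genes. Genotypes were compared within a day in the deposited scaling. For the days, median-of-ratios factors over the 12 libraries rescaled the reads, and 1 model held all 4 groups. Exon lengths and overlaps came from GENCODE M21, and ADAM genes were split by a search for the zinc-binding motif in translated coding sequences. The scripts were tested on simulated data.

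Same-numbered libraries of a day, whose sample names share a letter, deviated together from their group means (correlation over genes of 0.573, 0.378 and 0.288 at P14 and 0.266, 0.283 and 0.319 at P16). The numbers therefore pair the libraries within a day, and the block was fitted as an alternative. The other alternatives were DESeq2 1.42.0 and edgeR 4.0.16 on the recovered reads, TMM scaling, pseudocounts of 0.1 and 10, other filters, a joint fit or only the libraries compared, and leaving out each library in turn. Genes were named, 26 in all, if they passed the test in a comparison or only with the block at P14 or P16, led their role group in level per kb, were Timp genes, or were the 3 above the median level of the families nearest to 0 at P16. Beyond this rule, Mmp23, Mmp9, the lowest genes, the genes with a mean under 10, the uncertain Adam1a and the promoter matches Adam15, Adam17, Adam19 and Mmp12 were named after their values or sequences were seen. Some items are not reported here.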

Additional observations from a re-analysis of the deposited data

How the results depend on the processing

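At P16, 5 genes of the families passed between genotypes, and the count was 10 with the replicate block, 9 in DESeq2, 10 in edgeR with the block (a fit chosen after seeing the data) and 3 to 5 without any 1 library, 3 of them without P16 dMF1/2 replicate 3. At P14 it was 0, against 4 with the block, 3 in DESeq2, 5 in edgeR with the block and 0 without any 1 library. In control mice over the days it was 10, against 3 with the libraries compared only, 2 to 10 without any 1 library, and 3 without both P14 libraries numbered 1 (also chosen after seeing the data). In dMF1/2 mice it was 1, against 3 with the block, 4 in DESeq2, 2 in edgeR with the block, 2 with at least 10 reads in every library, 0 with the libraries compared only, 0 to 2 without any 1 library and 2 without both P14 libraries numbered 1. The interaction count was 0, against 1 in DESeq2 and 0 to 1 without any 1 library. Beside the values given in the report, the block changed no other call among the genes named. TMM scaling, pseudocounts, the unfiltered table and edgeR without the block left each count within 1.5 times.

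Of 882 single-gene values under alternatives, 19 changed sign, each of a gene that had not passed the test. At P16 these were Mmp2 (-0.0014 in DESeq2, -0.0016 in edgeR, -0.0022 in the joint fit and -0.061 to 0.090 without any 1 library) and, without any 1 library, Adamts2 (-0.098 to 0.14), Timp2 (-0.16 to 0.067) and Timp3 (-0.16 to 0.14). Over the days in dMF1/2 mice they were, without any 1 library, Adam23 (-0.32 to 0.037, and 0.037 without both P14 libraries numbered 1), Adamts18 (-0.086 to 0.28), Mmp11 (-0.10 to 0.28) and Mmp28 (-0.066 to 0.48). Groups of 3 mice limit the precision of every value, and low genes such as Mmp13 and Timp4 also hold few reads per library. Counting error and the spread between mice were not separated.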
